A study of Mus musculus with 12 samples.

Results

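Osteoclasts, the cells that resorb bone, form from marrow precursors of the monocyte lineage, and a marrow culture can also carry some stromal cells. The miRNAs described here are 6 that are known from mesenchymal and stromal cells rather than from blood cells, namely mmu-miR-199a-3p, mmu-miR-199a-5p, mmu-miR-199b*, mmu-miR-214, mmu-miR-143, and mmu-miR-145. They were taken by name from the 696 mouse miRNAs on the array, with earlier results of these data known. All 6 were among the 334 detected on at least 1 of 12 arrays. The cells came from the marrow of long bones of C57BL/6 male mice aged 6 to 8 weeks, from which cells with B220/CD45R or CD3, markers of B and T lymphocytes, had been removed. All cultures received M-CSF and RANKL at 30 ng/ml each. M-CSF keeps the precursors alive and RANKL drives them toward osteoclasts. The groups were treated alike and differed in the time of harvest, with 4 independent cultures at day 1, 4 at day 3, and 4 at day 5, and no culture without RANKL or untreated marrow was analyzed here. The selection against lymphocytes leaves any stromal cells in the culture.

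A miRNA is cut from a hairpin, and either arm, named 5p or 3p, can be loaded onto an Argonaute protein, where the seed near its 5′ end pairs with target mRNAs. The miR-199 and miR-214 genes lie antisense within dynamin genes and are known for high levels in mesenchymal tissue, fibroblasts, and chondrocytes. miR-143 and miR-145 come from a shared long transcript and are known above all from smooth muscle, fibroblasts, and pericytes. In bone, miR-214 has been described in osteoblasts, where it represses Atf4.

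The mature sequences show which of the 6 array entries can be told apart, and they are given 5′ to 3′ with the seed (bases 2 to 8) in capitals, as RefSeq lists them for GRCm38.p6. The 3 sequences have different seeds.
mmu-miR-199a-3p: aCAGUAGUcugcacauugguua
mmu-miR-199a-5p: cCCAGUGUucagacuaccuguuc
mmu-miR-214-3p: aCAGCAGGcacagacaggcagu
The entry mmu-miR-214 of the array corresponds to miR-214-3p by its probes. RefSeq gives the sequence printed for miR-199a-3p at Mir199a-2 on chromosome 1, at Mir199a-1 on chromosome 9, and, under the name mmu-miR-199b-3p, at Mir199b on chromosome 2. The scanner files place the probes of this entry at all 3 genes (mm9), so that its signal cannot be assigned to one of them. The 5p arms of miR-199a and miR-199b have separate entries, mmu-miR-199a-5p and mmu-miR-199b*. The longest probe of each entry is printed here, with the base that separates them in capitals.
mmu-miR-199a-5p: gaacaggtagtctGaacac
mmu-miR-199b*: gaacaggtagtctAaacactgg
Over the 19 bases that both probes share, they differ by 1, which is G14A when positions are counted from 1 at the 5′ end of the probe. The miR-199a-5p probe is placed at chr1:164147979-164147997 and at chr9:21300948-21300966, and the miR-199b* probe at chr2:32174007-32174027 (all mm9). How much of the RNA of one arm binds to the probe of the other was not tested.

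In GRCm38.p6, Mir199a-2 (chr1:162217814-162217923) and Mir214 (chr1:162223368-162223477) lie 5444 bp apart on the plus strand, and both fall inside Dnm3, a protein-coding gene, and Dnm3os, an lncRNA gene. Mir199a-1 (chr9:21496495-21496564, minus strand) lies within Dnm2, and Mir199b (chr2:32318460-32318569, plus strand) within Dnm1.

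Mir143 and Mir145a lie 1301 bp apart on chromosome 18, both within the bounds of the lncRNA gene Carmn. A transcript over both hairpins would carry both miRNAs, whereas the 2 mature miRNAs have separate array entries.

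Between 186 and 276 of the 696 miRNAs were detected per array. The scanner software gives each miRNA a total gene signal (the sum of its probes after background subtraction, in linear intensity units) with an error. The median error over all miRNAs was 85.3 on the array of day 5 replicate 4 and between 21.7 and 49.8 on the other 11. Days 1 and 5 shared slide 1 and its scan, and day 3 was on slide 2 alone, so that for any comparison with day 3 the slide and the day cannot be told apart. In these bulk cultures, a change in the number of cells that hold a miRNA and a change in its amount per cell cannot be told apart either.

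The members of the miR-199 family and miR-214 were higher at day 5 than at days 1 and 3, and so was miR-143. For miR-145 the unnormalized signals of day 5 lay above those of day 3, but it was detected on no array of either day. Its normalized values of these days overlapped, and its day 5 signals were not above those of day 1. For 5 of the 6 members every day 5 array lay above every array of both earlier days. Over all 334 miRNAs, with each earlier day taken alone, this held for 32.6% against day 1 and 22.5% against day 3. One of the 5, miR-143, was among the 334 only through its detection at day 5. The signals of days 1 and 3 were close to or under the detection limit for all but miR-199a-3p. Of the 72 member values (6 miRNAs on 12 arrays), 37 were marked as detected and 0 as saturated.

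**Figure D1:**
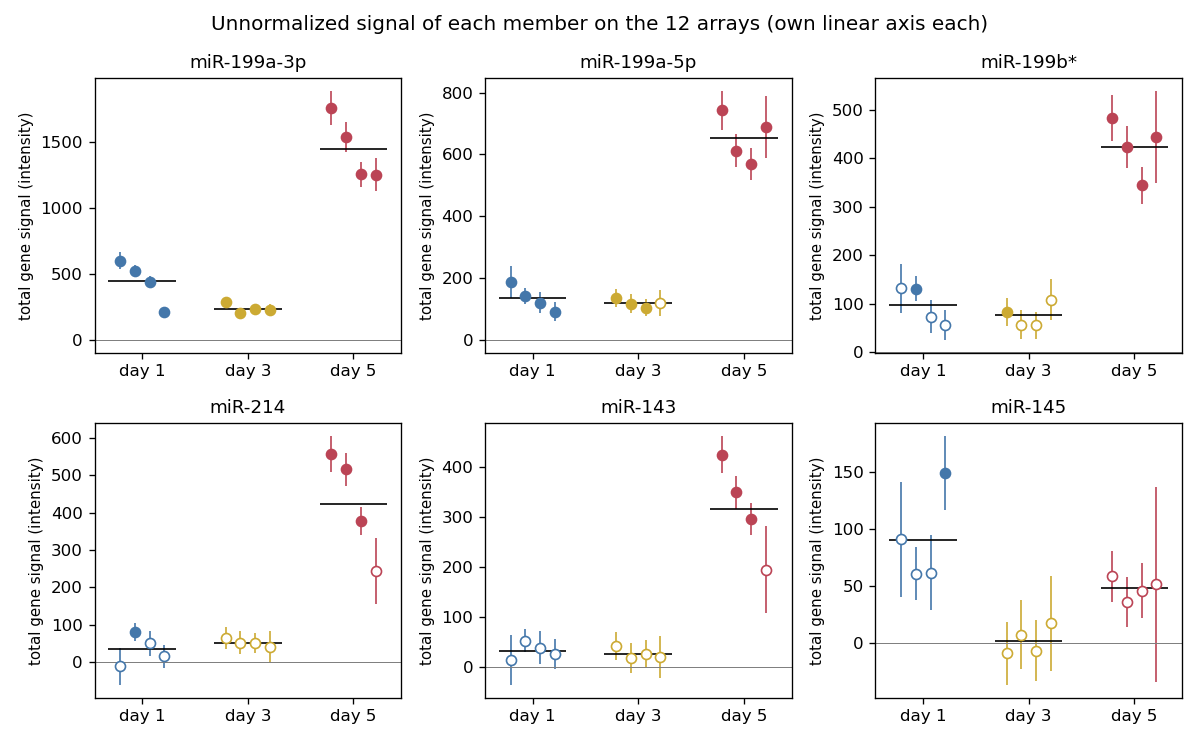
Total gene signal (linear intensity, not normalized between arrays) of the 6 members on each array, with the signal error as bars and the day mean as a black line; filled points were detected and open points were not, and each panel has its own axis. For the 3 miR-199 entries, miR-214, and miR-143 all 4 day 5 points lie above every point of days 1 and 3, whereas for miR-145 the day 1 points are the highest.

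miR-199a-3p has been described as a repressor of Mtor and Met. Its total gene signals were 604, 521, 443, and 211 in replicates 1 to 4 of day 1. They were 285, 206, 233, and 229 at day 3, and 1763, 1539, 1257, and 1254 at day 5. It was the only member detected on all 12 arrays, the day 5 range was separate from the other 2, and the ranges of days 1 and 3 overlapped through day 1 replicate 4. After quantile normalization the log2 means were 8.37 ± 0.46 at day 1, 8.46 ± 0.09 at day 3, and 10.60 ± 0.24 at day 5 (SD, n = 4). Between days 1 and 5 it rose by 2.23 on the log2 scale (SE 0.21), or 4.68-fold, with a limma adjusted p of 3.86e-06. Without normalization the ratio of the day 5 mean to the day 1 mean was 3.27, while the summed signal of all miRNAs had a ratio of 0.803.

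miR-199a-5p, the opposite arm and a known repressor of Hif1a, gave signals of 188, 143, 121, and 92.1 at day 1. The signals were 136, 118, 105, and 120 at day 3, and 743, 612, 569, and 688 at day 5. Day 3 replicate 4 was the 1 array without detection, and only day 5 stood apart. Its log2 mean rose from 6.62 ± 0.29 at day 1 to 9.34 ± 0.24 at day 5 (SD, n = 4), a log2 change of 2.72 (SE 0.17), or 6.59-fold, with a limma adjusted p of 1.35e-07. The change was 1.34 with normexp background correction and 7.59 in the values the authors deposited. Most of its signals at days 1 and 3 were 2.80 to 4.57 times their error, and that of day 1 replicate 2 was 5.50 times. The p given was the smallest of the members for this pair of days.

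miR-199b*, the 5p arm of the third miR-199 gene, gave signals of 131, 131, 73.2, and 55.2 at day 1. The signals were 83.0, 56.5, 55.2, and 108 at day 3, and 483, 424, 344, and 445 at day 5. It was detected on 1 of 4 arrays at day 1, on 1 of 4 at day 3, and on 4 of 4 at day 5. Day 5 exceeded day 1 by 2.82 on the log2 scale (SE 0.30), or 7.09-fold, with a limma adjusted p of 1.11e-05, and the unnormalized ratio of day means was 4.34. The log2 change was 1.14 with normexp and 8.28 in the values the authors deposited.

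miR-214 gave signals of -10.6, 82.1, 50.6, and 16.4 at day 1. The signals were 64.7, 52.9, 51.2, and 40.7 at day 3, and 557, 515, 378, and 245 at day 5. It was detected on 1 array at day 1, on 0 at day 3, and on 3 at day 5. The day 5 array without detection was replicate 4, with the lowest day 5 signal (245, at 2.79 times its error), which was still above all 8 signals of days 1 and 3. Day 5 exceeded day 1 by a fitted log2 value of 6.10 (SE 1.16, limma adjusted p = 0.000719). Its size depends on 2 day 1 values that were at the floor of 1 set before taking log2, and the alternatives gave 1.32 (normexp background correction) to 9.77 (the values the authors deposited). Without normalization the ratio of day means was 12.2. Against day 3, where it was detected on no array, miR-214 was 3.99-fold higher at day 5 on signals scaled to the 75th percentile. It was 4.84-fold higher on quantile-normalized signals (log2 means 8.57 and 6.18) and 6.65-fold without normalization. Day 3 replicates 1 to 3 entered with their own undetected signals, which lay above the lowest detected ones, so these folds are not strict bounds. At 3 times the error the bound was 4.26 on unnormalized signals. The summed signal of all miRNAs was itself 1.37 times as high at day 5 as at day 3. The fit over all miRNAs gave an adjusted p of 0.149 for that pair (limma).

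miR-143, a smooth muscle and fibroblast miRNA, gave signals of 13.8, 52.4, 38.6, and 25.5 at day 1. The signals were 42.7, 18.7, 25.9, and 19.6 at day 3, and 424, 349, 295, and 194 at day 5. It was detected on 0 arrays at day 1, on 0 at day 3, and on 3 at day 5. Here too the exception was day 5 replicate 4, at 2.24 times its error. The largest signal of days 1 and 3 was 52.4, so the groups did not overlap. The log2 means were 2.03 at day 1 and 8.14 at day 5, with a limma adjusted p of 7.5e-05. With no detection at day 1, the size of the change is given as a bound. With each day 1 value raised to 3 times its error, miR-143 was at least 3.08-fold higher at day 5, and the ratio of the unnormalized day means as measured was 9.69. Against day 3 the same rule gave 3.24-fold on unnormalized signals. The summed signal of all miRNAs was itself 1.37 times as high at day 5 as at day 3, and the 3.24 is not corrected for that. The limma adjusted p, on normalized signals, was 0.018. The quantile-normalized day 1 values lay near the floor, so the fitted log2 change of 6.12 (SE 0.85) has no interpretable size.

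miR-145, the partner of miR-143 in the same gene, had its highest signals at day 1. Its signals were 90.5, 60.7, 61.5, and 149 at day 1. They were -9.32, 7.03, -7.02, and 16.96 at day 3, and 58.2, 35.7, 45.6, and 51.5 at day 5. It was detected on 1 of 12 arrays, day 1 replicate 4, and on no array of day 3 or day 5. Every day 1 signal was above every signal of the other days, but the lowest of day 1 (60.7) was close to the highest of day 5 (58.2), and after normalization days 1 and 5 overlapped. The fitted log2 difference between day 5 and day 1 was -0.13 (SE 1.10, limma adjusted p = 0.918). The fitted difference between day 3 and day 1 was -3.62 (SE 1.10), with an adjusted p of 0.014. Between day 3 and day 5 the unnormalized signals did not overlap, with day 5 higher, as for miR-143, whereas the normalized values of miR-145 overlapped. The fitted difference was 3.49 (SE 1.10, limma adjusted p = 0.0311), and the adjusted p was 0.00442 without normalization. Neither day had any detection, so no fold is given. When each day 3 value was raised to 3 times its error, the ratio of day 1 to day 3 was 0.902, and a difference could not be measured above the error.

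**Figure D2:**
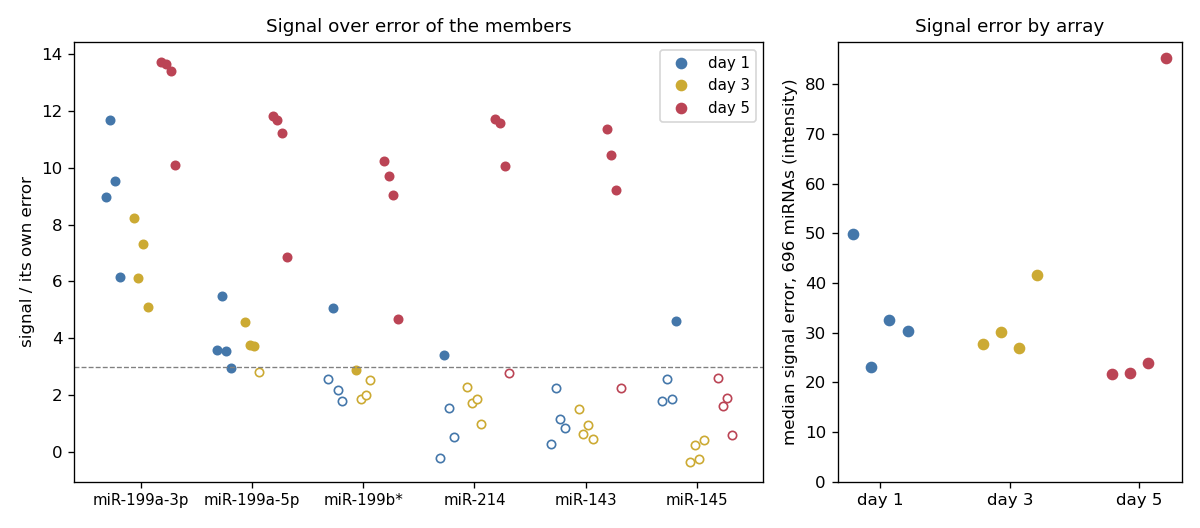
Left, total gene signal divided by its own error for each member and array, with the days in colors, detected values filled and a dashed line at 3. Right, the median signal error over the 696 miRNAs on each array. The day 5 values lie far above the line for the miR-199 entries, miR-214, and miR-143 on 3 arrays, and day 5 replicate 4, whose median error was 85.3, gives the lowest day 5 ratio for all 6 members.

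Over the whole time course, 5 of the 6 members passed the F test of limma at an adjusted p under 0.01, against a background of 62.9% of the 334 miRNAs tested. The member that did not pass was miR-145 (adjusted p = 0.0187), which passed under 3 of the other scalings, and with a floor of 0.1 the count was 4. From day 1 to day 5 a call also required a log2 change above 1, and 5 of 6 members rose by that rule, against a background of 24.3% that rose. Of these, miR-143 was detected at day 5 alone. It was tested only because of the day on which it was high, so it adds no independent support to this count or the counts without overlap. By limma 0 members fell, and 0 fell at an unadjusted p under 0.05, against a background of 22.5% that fell. The median log2 change from day 1 to day 5 was 2.77 over the 6 members and 0.11 over all 334. Every day 5 array lay above every day 1 array for 5 of 6 members, against a background of 32.6%. From day 3 to day 5 the members that rose were the 3 miR-199 entries, against a background of 5.99% that rose, and 0 members fell (0 at an unadjusted p under 0.05 in limma), against 4.49%. After normalization the day 5 arrays lay above all day 3 arrays for 5 of 6 members, against a background of 22.5%. On unnormalized signals the day 5 arrays lay above for miR-145 too. The share of all 334 on unnormalized signals was not computed, and the summed signal was itself 1.37 times as high at day 5 as at day 3. For single members in these comparisons without overlap, an exact permutation test (two-sided, 4 arrays of each day) gave p = 0.0286, the smallest it can give.

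The rise from day 3 to day 5 was of similar size in the 3 miR-199 entries. The log2 change was 2.13 (SE 0.21) for miR-199a-3p, with a limma adjusted p of 4.17e-05. It was 2.09 (SE 0.17) for miR-199a-5p, with an adjusted p of 1.27e-05. For miR-199b* it was 2.18 (SE 0.30), with an adjusted p of 0.000336. Without normalization the ratios of the day 5 mean to the day 3 mean were 6.09, 5.46, and 5.60, and that of the summed signal of all miRNAs was 1.37.

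**Figure D3:**
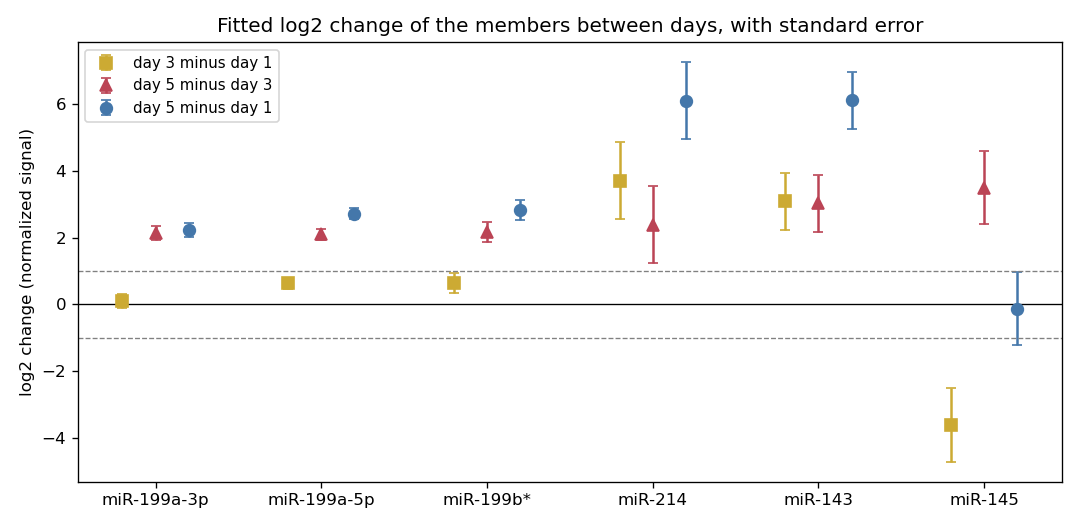
Fitted log2 change of the normalized signal for each member between day 3 and day 1 (squares), day 5 and day 3 (triangles), and day 5 and day 1 (circles), with the standard error as bars and dashed lines at -1 and 1. The miR-199 entries rise by 2.23 to 2.82 between day 1 and day 5 with small errors, whereas miR-214, miR-143, and miR-145 have errors of 0.85 to 1.16 and many values near the floor.

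Between day 1 and day 3 the fitted changes were above 0 for 5 of 6 members and below 0 for miR-145, with a median of 0.64 against 0.18 over all 334. At an unadjusted p under 0.05 in limma 3 rose and 1 fell. The call rule gave 1 member that rose, miR-143, against a background of 15.6%, and 0 that fell, against a background of 19.5%. The called member was detected on no array of either day, its unnormalized day 3 mean was 0.821 of the day 1 mean, and the ranges overlapped, so no fold is given. The miR-143 call depended on the arrays used. It held without day 1 replicate 2, when miR-214 was called too, and without day 5 replicate 4. Without day 3 replicate 4 the 1 member called was miR-145, which fell, and without any other array 0 members were called. miR-214, with no detection at day 3, had a fitted change of 3.71 (SE 1.16, limma adjusted p = 0.0161) and no overlap after normalization, whereas its unnormalized signals overlapped. With the replicate number as a block the 1 member called was miR-145, which fell, with an adjusted p of 0.00569 (limma). miR-199a-5p had a log2 change of 0.63 (SE 0.17, limma adjusted p = 0.00827), below the 2-fold threshold, and of -0.14 without normalization. For miR-199a-3p the change was 0.09 (SE 0.21, adjusted p = 0.709), and for miR-199b* 0.65 (SE 0.30, adjusted p = 0.0826). Without normalization the median of all 334 miRNAs moved by -0.77 between day 1 and day 3, and by -0.50 between day 1 and day 5.

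Each entry has 2 probes of different length, which allowed the day 5 rise to be read separately in each, as the mean background-subtracted signal of its spots. For all 5 rising members both probes had every day 5 array above every array of days 1 and 3. The total signal is the sum of these probes, so this is no independent test of the rise. The share over all probes of the array was not computed. For miR-199a-3p the ratio of the day 5 mean to the day 1 mean was 3.86 in the probe of 19 bases and 2.98 in that of 20 bases. For miR-199a-5p it was 4.58 in the probe of 19 bases and 5.68 in that of 18, which had 0 spots well above background at day 1, so that its ratio is against background. For miR-199b* it was 4.67 in the probe of 22 bases. The other miR-199b* probe, of 21 bases, had a ratio of 2.96, and 6 of its 38 day 5 spots were well above background. For miR-143 the ratios were 12.1 and 8.50 in the probes of 15 and 16 bases, with 0 spots well above background at day 1 in either, so that both ratios are against background. The longer miR-214 probe, of 13 bases, had a mean signal of 51.1 ± 35.4 at day 1 and 464 ± 160 at day 5 (SD, n = 4). For miR-145 the probes of 13 and 14 bases had ratios of 0.283 and 0.788.

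**Figure D4:**
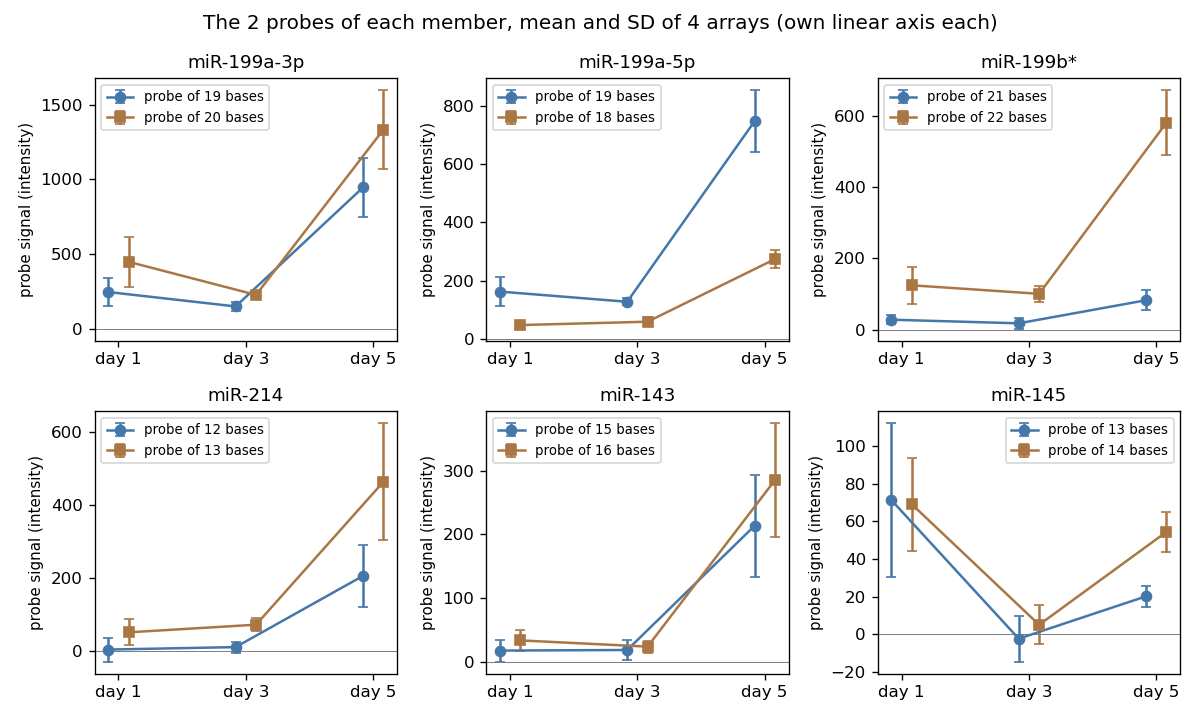
Signal of the 2 probes of each member (linear intensity, mean of the spots on an array, then mean and SD of 4 arrays) at days 1, 3, and 5, with probe lengths in the legends and an own axis for each panel. Both probes are higher at day 5 than at days 1 and 3 for every member but miR-145. The miR-145 probes are highest at day 1, and higher at day 5 than at day 3.

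Arms of a hairpin and miRNAs of a shared transcript can come from the same precursor RNA, and 5 pairs of members were compared within arrays. The pair of miR-199a-5p and miR-199b* comes from different genes. The probes of miR-199a-3p and miR-199a-5p also match genes other than Mir199a-2, the one near Mir214. The measure was the log2 difference of the pair at day 5 minus that at day 1, tested by exact two-sided permutation with adjustment over the 5 pairs. None passed an adjusted p of 0.05. The smallest p this test can give is 0.0286, which passes after adjustment only if several pairs reach it together. The lack of a pass therefore does not show that the members of a pair changed alike. For miR-143 against miR-145 the change was 6.24 (SE 1.47, p = 0.0286, adjusted p = 0.0714, exact permutation), and the day 1 and day 5 differences did not overlap. The pair differed by a mean of -3.69 at day 1 and 2.56 at day 5, and the value fell to 4.78 without day 5 replicate 4. It was 4.23 without normalization and 1.15 with normexp. miR-143 was detected on 0 day 1 arrays and miR-145 on 0 day 5 arrays, so the size of this difference cannot be read. The change of miR-199a-5p against miR-199a-3p was 0.49 (SE 0.18, p = 0.0571, adjusted p = 0.0714, exact permutation), and it was 0.32 without day 5 replicate 4. For miR-199a-5p against miR-199b*, the entries with near-identical probes, it was -0.11 (SE 0.22, p = 0.657, adjusted p = 0.657, exact permutation). miR-199a-3p and miR-199a-5p changed less than miR-214, by -3.87 (SE 1.37) and -3.38 (SE 1.49), each with an adjusted p of 0.0714 by exact permutation. Both values rest on the miR-214 signals near the floor at day 1, and with normexp background correction they were 0.27 and 0.02.

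Other miRNAs known from stromal cells were taken from a list of 22, of which 21 were on the array under their listed names. Of these, 12 were detected on at least 1 array, 7 rose from day 1 to day 5 and 0 fell (1 at an unadjusted p under 0.05 in limma, miR-10a), with a median log2 change of 1.83 against 0.11 over all 334. The shares of all 334 that rose and fell were 24.3% and 22.5%. The count that rose was 5 of 12 without normalization and with the 75th percentile of detected miRNAs, and 5 of 9 in the values the authors deposited. The shares of all miRNAs that rose under these alternatives are not given. Several of them are also expressed by blood cells. miR-125b-5p, miR-100, and miR-99a, which are transcribed from related clusters, rose by log2 2.51 (SE 0.08), 2.66 (SE 0.13), and 2.72 (SE 0.09). They differed in timing from the miR-199 entries, with changes of 1.98, 1.96, and 2.12 already between day 1 and day 3. miR-152 rose by 2.57 (SE 0.18) and miR-140, known from cartilage, by 1.16 (SE 0.09). miR-34c was detected on 0 arrays at day 1, 4 at day 3, and 3 at day 5. At day 5 it was at least 3.13-fold higher than at day 1 at 3 times the day 1 error (limma adjusted p = 1.15e-11). Against the lowest detected signals without normalization the value was 37.3-fold. That of day 1 replicate 4 was -2.92 and was set to 1, so the 37.3 rests in part on this floor. miR-196a was the last of the 7, was detected on 2 of 4 arrays at day 5, and had no bound above 1 at 3 times the error (0.370). It was tested only through its detection at day 5. No call was made for miR-22 (log2 change 0.92, SE 0.11), miR-140* (0.28, SE 0.09), miR-10b (-0.02, SE 0.21), miR-10a (-0.44, SE 0.14), or miR-204, which was detected on 2 of 12 arrays.

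**Figure D5:**
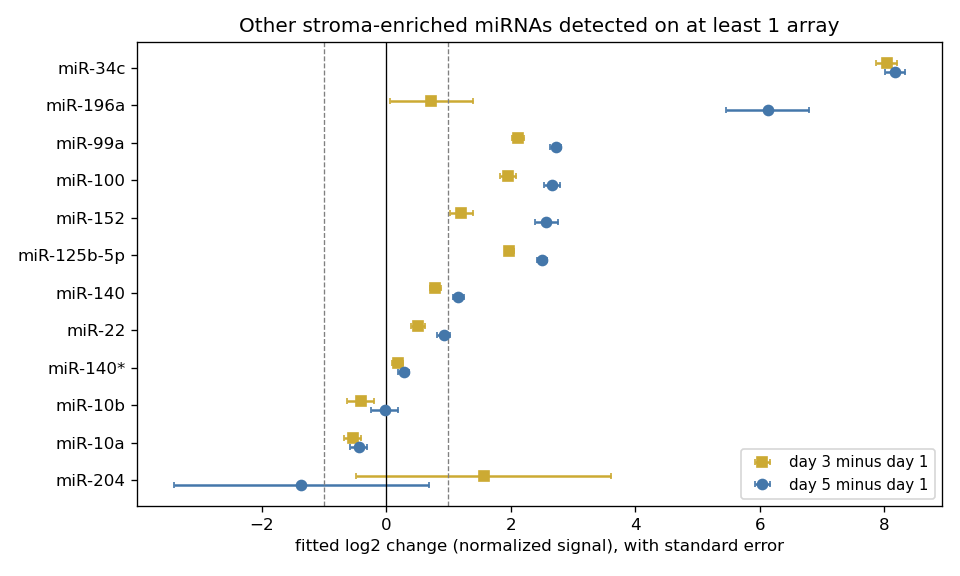
Fitted log2 change of the normalized signal, with standard error, of the 12 other stroma-enriched miRNAs detected on at least 1 array, between day 3 and day 1 (squares) and between day 5 and day 1 (circles), with dashed lines at -1 and 1. Circles of 7 miRNAs lie above 1, and for miR-125b-5p, miR-100, miR-99a, and miR-34c most of the change is present at day 3.

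The remaining 9 of the 21 were not detected on any array. They included the other arms of hairpins of the members, miR-214* and miR-145*, and also miR-127, miR-379, miR-411, and miR-376a, which come from the imprinted Dlk1-Dio3 region and are abundant in many mesenchymal cells. The summed signal of the 21 was 32177 to 40638 at day 1, 28722 to 32799 at day 3, and 56496 to 67990 at day 5, most of it miR-22. miRNAs of blood cells were also measured. Signals of miR-223, which marks myeloid cells, were 82084 to 85627 at day 1 and 55476 to 62758 at day 5. miR-451, of red cell precursors, went from 28908 to 57238 at day 1 to 124 to 295 at day 5. miR-126-3p, found in endothelial cells, megakaryocytes, and progenitors, was detected on 4 of 4 arrays at day 1 and on 0 at day 5. From day 1 to day 5, 1 of 6 myeloid miRNAs rose and 1 fell, and 2 of 2 erythroid and 2 of 2 endothelial and megakaryocytic ones fell, against 24.3% of all miRNAs that rose and 22.5% that fell. Of those that fell, miR-144 was detected on 2 arrays and miR-126-5p on 1, all of day 1, the day through which they were tested. At 3 times the error the bound of day 1 over day 5 was 1.91 for miR-144. For miR-126-5p it was 0.399, so its fall could not be measured above the error. Of the 3 lymphoid ones none was called, but 2 fell at an unadjusted p under 0.05 in limma. The log2 change was -0.80 for miR-181a (SE 0.15, limma adjusted p = 0.000641), short of the 2-fold threshold. It was 0.45 for miR-181b (SE 0.13, adjusted p = 0.0101). miR-150 was detected on 4 of 4 arrays at day 1 and on 0 at day 5 (adjusted p = 0.067). In the epithelial list 2 of 3 tested rose, and in the striated muscle list the 1 tested, miR-206, fell. Here miR-206 was detected on 1 array, of day 1, and miR-200a, which rose, on 3 arrays of day 5 alone. The bounds at 3 times the error were 1.22 for miR-206 (day 1 over day 5) and 1.06 for miR-200a (day 5 over day 1). The part of these lists in the rise of the members was not tested.

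The miRNAs whose profile over the 12 arrays was most like that of the miR-199 entries and miR-214 were sought among 244 others detected on all 4 arrays of at least 1 day. The reference was the mean of the 4 centered log2 profiles, and likeness was Pearson's r. The highest were miR-151-5p (r = 0.99), miR-152 (0.97), miR-362-3p (0.95), miR-532-5p (0.95), and miR-148b (0.94). Their log2 changes from day 1 to day 5 ran from 0.70 for miR-148b to 2.57 for miR-152, and the first of them, miR-151-5p, changed by 0.80 between days 1 and 3 and by 1.15 between days 3 and 5. For the mean of miR-143 and miR-145 the highest were miR-342-3p (r = 0.87), miR-29a (0.86), let-7i (0.85), miR-146a (0.81), and miR-30a (0.81). The arrays share days and slides, and both references include values at the floor, so these coefficients describe the 12 arrays and no more.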

How the data were processed

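RNA (200 ng per culture, labeled with Cy3) from 12 cultures was measured on single-color Agilent mouse miRNA arrays. The intensity values in the deposited scanner files (Feature Extraction 9.5.3.1) are background-subtracted total gene signals, not normalized between arrays. The authors also deposited log2 values that they had quantile normalized in GeneSpring, left empty for miRNAs without detection, which served as an alternative. For the 334 miRNAs with detection on any array, total signals were quantile normalized, raised to a floor of 1 (372 values, 9.28%), and converted to log2. limma 3.58.1 in R 4.3.3 (lmFit and eBayes, 1 mean per day, Benjamini-Hochberg adjustment over all 334) was used, tested first on simulated data. A change between days was called at an adjusted p under 0.01 and a log2 change beyond 1. Where a miRNA was detected on no array of a day, the fold is a bound, with each dim value raised to the lowest signal detected on its array. Dim values above that lowest signal were kept as measured, and unnormalized or scaled values below 1 were set to 1. Bounds at 3 times the signal error use unnormalized signals. On day 1 that lowest normalized signal was at or near the floor on each array, so bounds on unnormalized or scaled signals and at 3 times the signal error, added after seeing the data, are given instead. Precision is limited by the 4 arrays per day.

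The members and the marker lists were chosen with earlier results of these data known. The text names the 6 members, the listed stromal miRNAs, markers of other cell types, and for each of 2 references the 5 miRNAs most like it. Alternatives covered scaling, signal, background correction, floor, filters, thresholds, the methods' analysis of variance, the replicate block, and each array left out. Python 3.11.15, numpy, pandas, scipy, and matplotlib were used for permutation tests, tables, and figures. Sequences and genes are from RefSeq tables for GRCm38.p6, and probe places are those of the scanner files (mm9). Of the 6 members, 3 were matched to a mature RefSeq sequence through both probes.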

Additional observations from a re-analysis of the deposited data

How the results depend on the processing

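The rise of 5 members from day 1 to day 5 was called under every scaling, signal, floor, and threshold tried on the scanner signals, with days 1 and 5 alone, and with each array left out in turn (5 to 5). In the values deposited by the authors 4 members could be tested and 4 were called. Filters changed the counts because fewer members were tested. With detection required on all arrays of a day, 3 members were tested, with 3 called over the 3 days, 3 from day 1 to day 5, and 0 from day 1 to day 3. With detection on all 12 arrays, 1 was tested, with 1 called over the 3 days, 1 from day 1 to day 5, 0 from day 1 to day 3, and 1 from day 3 to day 5, and 3 of the stromal list were called. In the authors' values 3 were called over the 3 days and 2 from day 1 to day 3. Over the 3 days 6 were called with the 75th percentile of all miRNAs, the median scaling, no normalization, and an adjusted p under 0.05, and 4 with a floor of 0.1. Left-out arrays gave 5 to 6 members over the 3 days, 0 to 2 from day 1 to day 3, 3 to 4 from day 3 to day 5, and 7 to 7 of the stromal list, which had 5 to 7 called under the other scalings. From day 1 to day 3 the count was 0 with the processed spot signal, with normexp, and with a floor of 0.1, and 3 at an adjusted p under 0.05. Under the 3 scalings by percentile or median, without normalization, and without a filter, the 1 member called was miR-145, which fell. From day 3 to day 5 it was 5 without normalization and 5 at an adjusted p under 0.05.

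Fitted changes from day 1 to day 3 turned sign as follows. miR-199a-3p had -0.081, -0.012, and -0.052 with the 75th percentile of detected miRNAs, the 75th percentile of all, and the median, -0.81 without normalization, -0.012 in the authors' values, -0.48 with detection on all 12 arrays, and -0.12 to 0.23 with arrays left out, the lowest without day 1 replicate 4. Without normalization miR-199a-5p had -0.14, miR-199b* -0.33, and miR-143 -0.20. The day 5 minus day 1 difference of miR-145 was -0.51 to 0.034 with arrays left out, and above 0 without day 5 replicate 2 or day 5 replicate 3. At 3 times the error its bounds for day 1 over days 5 and 3 were 0.886 and 0.902.

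For the pairs, miR-199a-5p minus miR-199b* was 0.10 without normalization and 0.20 with normexp. With normexp miR-199a-5p minus miR-199a-3p was -0.25, miR-199a-3p minus miR-214 was 0.27, and miR-199a-5p minus miR-214 was 0.015. With the processed spot signal 3 pairs passed an adjusted p of 0.05 (exact permutation), at 0.52 for miR-199a-5p minus miR-199a-3p, -3.76 for miR-199a-3p minus miR-214, and 5.71 for miR-143 minus miR-145. In the authors' values miR-199a-5p minus miR-199a-3p was 5.10, passed, and was the only pair measured. Left-out arrays gave 0.32 to 0.61 for miR-199a-5p minus miR-199a-3p, -0.22 to 0.029 for miR-199a-5p minus miR-199b*, -4.69 to -3.02 for miR-199a-3p minus miR-214, -4.24 to -2.49 for miR-199a-5p minus miR-214, and 4.78 to 6.97 for miR-143 minus miR-145.

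Same-numbered arrays of different days deviated together by -0.44 to 0.70 (r over 12 pairs, 7 of them above 0.1), so the numbers were not taken to pair the cultures. With the replicate block 6 members were called over the 3 days, 5 from day 1 to day 5, 1 from day 1 to day 3, and 3 from day 3 to day 5, and no pair passed (smallest adjusted p 0.156, exact permutation, where 4 paired differences cannot go below p = 0.125). The causes of these differences were not tested. Signals near their error limit miR-143, miR-145, and miR-214 at days 1 and 3.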
